A study of Mus musculus with 16 samples.

Results

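The fatty acid elongases and desaturases were described in the inguinal white fat of mice, a pad under the skin of the groin, as a family of 10 genes: Elovl1, Elovl3, Elovl5, Elovl6, Elovl7, Scd1, Scd2, Fads1, Fads2 and Fads3. They were chosen by gene symbol and joined by Ensembl identifier to a count table of 55487 genes, and all 10 passed the filter on low counts that left 16549 genes for testing. Poly-A RNA was sequenced from 16 male mice aged 6 to 7 months, each library from 1 animal. The 4 groups of 4 were whole-body Kmo knockout (KO) mice on high-fat diet (HFD), KO mice on chow, wild-type (WT) littermates on HFD and WT littermates on chow. Kmo encodes kynurenine 3-monooxygenase, an enzyme of tryptophan breakdown. The duration and composition of the HFD are not given in the sources used here.

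Elongases of the ELOVL family carry out the condensing step that lengthens a fatty acyl-CoA in the endoplasmic reticulum, and each has its own preferred chains. Stearoyl-CoA desaturases (SCD) turn saturated acyl-CoA into palmitoleate and oleate, the main monounsaturated fatty acids of stored fat, whereas the front-end desaturases FADS1 and FADS2 act on polyunsaturated chains. In fat cells, elongation by ELOVL6 and desaturation by SCD1 follow on from fatty acid synthase, and the genes of this route are known targets of the lipogenic factors SREBP1 and ChREBP and of insulin.

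Libraries held 13824404 to 16909361 counted read pairs, of which Elovl3 took 1 to 320 and Elovl7 1 to 35 in single libraries. Kmo gave 1 to 8 counts in KO libraries, against 40 to 298 in WT libraries, as labelled. All 10 adipocyte markers were detected in every group, and their summed level in CPM (counts scaled to the library's size with TMM factors) was 55409 to 62135 in KO mice on HFD, 45069 to 60107 in KO mice on chow, 46796 to 64228 in WT mice on HFD and 38954 to 60032 in WT mice on chow. The file headers mark 12 libraries as merged over sequencing lanes, while KO HFD replicate 1, WT HFD replicates 3 and 4 and WT chow replicate 2 came from a single lane. In bulk tissue, fewer cells of a type and less RNA per cell cannot be told apart.

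Of the genes, 6 lie on chromosome 19 in GRCm38: the cluster of Fads3, Fads2 and Fads1, then Scd2 and Scd1, and Elovl3. Fads3 ends 2654 bases before Fads2, on the opposite strand, and Fads2 ends 81141 bases before Fads1. Scd2 and Scd1 are 87590 bases apart. The windows around the transcription starts of Elovl6, Fads3 and Fads2 are shown because Elovl6 differed most between diets and because Fads3 and Fads2, neighbours on the chromosome, did not share their diet difference. They are RefSeq sequences of GRCm38.p6 from 250 bases before to 50 bases after a start, available here for 6 of the 10 genes. Elovl6 is at chr3:129532136-129532435 on the plus strand, Fads3 at chr19:10041298-10041597 on the plus strand and Fads2 at chr19:10101454-10101753 on the minus strand. Capitals mark matches, on either strand, to the CCAAT box (CCAAT), the GC box (GGGCGG), the E box (CACGTG) or the sterol response element (TCACNCCAC), none of which overlap here.
Elovl6: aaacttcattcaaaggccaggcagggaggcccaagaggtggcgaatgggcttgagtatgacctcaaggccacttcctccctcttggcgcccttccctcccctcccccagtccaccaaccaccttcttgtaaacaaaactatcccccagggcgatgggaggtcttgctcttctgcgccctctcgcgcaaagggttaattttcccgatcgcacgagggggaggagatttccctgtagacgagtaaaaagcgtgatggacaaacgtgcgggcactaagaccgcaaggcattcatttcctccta
Fads3: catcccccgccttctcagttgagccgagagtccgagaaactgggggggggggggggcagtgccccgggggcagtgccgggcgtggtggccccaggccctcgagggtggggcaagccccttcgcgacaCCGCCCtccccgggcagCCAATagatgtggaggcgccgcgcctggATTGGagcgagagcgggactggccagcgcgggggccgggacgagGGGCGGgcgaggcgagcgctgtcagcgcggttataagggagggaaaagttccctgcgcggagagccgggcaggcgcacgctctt
Fads2: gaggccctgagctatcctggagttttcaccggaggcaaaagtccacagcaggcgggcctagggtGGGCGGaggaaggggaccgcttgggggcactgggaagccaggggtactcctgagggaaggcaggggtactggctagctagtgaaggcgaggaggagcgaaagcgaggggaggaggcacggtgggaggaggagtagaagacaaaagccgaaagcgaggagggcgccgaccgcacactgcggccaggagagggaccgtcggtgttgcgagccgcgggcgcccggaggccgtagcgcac
The Fads3 window held 2 CCAAT boxes and 2 GC boxes, the Fads2 window 1 GC box, and the Elovl6 window none of the letters searched. Of 32851 mouse windows of the same length, 37.4% held a CCAAT box, 35.7% a GC box, 7.15% an E box and 1.24% the sterol response element. A match is a run of letters and not a measured binding site.

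Elovl6, which lengthens palmitate to stearate, was the member that differed most between diets. Its level was 34.6, 51.4, 41.5 and 55.1 CPM in KO HFD libraries, against 791, 1218, 577 and 152 CPM in KO chow libraries. In WT mice it was 25.4, 44.0, 44.4 and 47.4 CPM on HFD, against 522, 473, 552 and 867 CPM on chow. All 8 HFD libraries were below all 8 chow libraries, and KO chow replicate 4 was the lowest of the chow libraries. On HFD Elovl6 fell by 3.91 on the log2 scale in KO (SE 0.49, adjusted p = 0.00159) and by 3.90 in WT (SE 0.49, adjusted p = 0.00133), both from edgeR's quasi-likelihood test with Benjamini-Hochberg adjustment. Over both genotypes its level was 14.98-fold lower (log2 fold change -3.91, 95% interval -4.64 to -3.17, adjusted p = 2.08e-05), and it ranked 13 of the 16549 genes by p.

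Fads1, the desaturase that forms arachidonate, also fell on HFD. Its level was 53.6, 38.0, 31.5 and 42.1 CPM in KO HFD, against 80.3, 74.2, 58.9 and 54.7 CPM in KO chow. It was 43.0, 29.2, 28.7 and 48.9 CPM in WT HFD, against 92.3, 74.3, 93.0 and 64.4 CPM in WT chow. No HFD library reached the lowest chow library, although KO HFD replicate 1 with 53.6 CPM and KO chow replicate 4 with 54.7 CPM lay close together. The log2 fold change was -0.70 in KO (SE 0.20, adjusted p = 0.0368), -1.11 in WT (SE 0.20, adjusted p = 0.00559) and -0.91 over both genotypes (SE 0.14, adjusted p = 0.000466; edgeR). In KO the call was lost without any one of KO chow replicates 1, 2 and 3 or KO HFD replicates 2, 3 and 4 (adjusted p 0.0634 to 0.116) and without the filter on low counts (adjusted p = 0.0586).

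Fads3, which desaturates the sphingoid base of ceramides, rose on HFD. Its level was 648, 907, 968 and 806 CPM in KO HFD, against 384, 495, 432 and 644 CPM in KO chow. It was 1038, 800, 841 and 736 CPM in WT HFD, against 520, 440, 640 and 417 CPM in WT chow. The lowest HFD library, KO HFD replicate 1, was just above the highest chow library, KO chow replicate 4. The log2 fold change was 0.77 in KO (SE 0.19, adjusted p = 0.0177), 0.76 in WT (SE 0.19, adjusted p = 0.0198) and 0.76 over both genotypes (SE 0.13, adjusted p = 0.000756; edgeR). The call in KO was lost without KO chow replicate 3, KO HFD replicate 2 or KO HFD replicate 3 (adjusted p 0.0591 to 0.0626), and that in WT without WT chow replicate 4, WT HFD replicate 1 or WT HFD replicate 3 (0.0504 to 0.0628) or with merged libraries alone (0.093).

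Scd1, the main stearoyl-CoA desaturase of fat, took more counts than any other gene in every library, between 2.40% and 7.83% of them. Its level was 48909, 34771, 35347 and 53673 CPM in KO HFD, against 65935, 84486, 51088 and 31712 CPM in KO chow. It was 32095, 23272, 32574 and 47285 CPM in WT HFD, against 65212, 62542, 63129 and 62067 CPM in WT chow. The WT diet groups did not overlap and the WT chow libraries lay between 62067 and 65212 CPM, whereas in KO the chow libraries spanned the whole HFD range. Over both genotypes Scd1 fell by 0.67 on the log2 scale (SE 0.21, adjusted p = 0.0213; edgeR), although the groups overlapped. Within a genotype it did not pass, at -0.43 on the log2 scale in KO (SE 0.29, adjusted p = 0.33) and -0.90 in WT (SE 0.29, adjusted p = 0.0548; edgeR). The WT difference passed with DESeq2 (adjusted p = 0.00696), with upper-quartile factors (0.0468) and without WT HFD replicate 4 (0.0365), KO chow replicate 2 (0.0436) or KO chow replicate 4 (0.0285).

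Scd2, a second stearoyl-CoA desaturase known in the mouse for its part in the brain and in fat cell formation, passed no test. Its level was 466, 1320, 1151 and 1227 CPM in KO HFD, against 695, 796, 502 and 708 CPM in KO chow. It was 635, 1008, 1191 and 640 CPM in WT HFD, against 817, 654, 1355 and 553 CPM in WT chow. Of the KO HFD libraries 3 were above every KO chow library and replicate 1, from a single lane, was below them all. Replicate 1 also had 527 CPM of summed lymphocyte markers, against 9.21, 16.1 and 15.3 CPM in KO HFD replicates 2, 3 and 4. Whether lane or tissue content bears on its Scd2 level was not tested. The log2 fold change between diets was 0.62 in KO (95% interval -0.09 to 1.33, adjusted p = 0.223) and 0.04 in WT (-0.67 to 0.75, adjusted p = 0.949; edgeR).

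Elovl5, which elongates polyunsaturated chains, and Fads2, which takes the rate-limiting desaturation step for those chains, passed no test between diets. Elovl5 had a lowest, median and highest level of 74.6, 87.5 and 93.4 CPM over the 8 HFD libraries, against 80.9, 96.2 and 124 CPM over the 8 chow libraries. Fads2 had 10.5, 17.3 and 20.9 CPM on HFD, against 12.7, 18.6 and 25.2 CPM on chow. The diets overlapped for both genes, with a log2 fold change over both genotypes of -0.15 for Elovl5 (95% interval -0.31 to 0.02, adjusted p = 0.15) and -0.18 for Fads2 (-0.48 to 0.11, adjusted p = 0.32; edgeR). Elovl1, which elongates saturated and monounsaturated chains toward very long lengths, had 39.3, 44.0 and 51.7 CPM on HFD, against 27.7, 37.0 and 47.4 CPM on chow. Its log2 fold change of 0.23 (95% interval 0.02 to 0.45) did not pass after adjustment (adjusted p = 0.0903; edgeR). The Elovl1 difference passed without KO chow replicate 4, over both genotypes (adjusted p = 0.0181) and in KO (0.46, adjusted p = 0.0338), and over both genotypes without WT chow replicate 3 (0.0383).

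Elovl3, an elongase of saturated chains that is known for its rise in cold-exposed brown fat, was scarce and spread widely. Its level was 0.0708, 2.87, 3.07 and 1.60 CPM in KO HFD, against 11.2, 17.2, 8.46 and 0.563 CPM in KO chow. It was 1.27, 3.51, 5.92 and 0.126 CPM in WT HFD, against 2.15, 1.30, 0.333 and 20.4 CPM in WT chow. Both diets held libraries under 1 CPM, and the 4 libraries above 8 CPM were all on chow. The log2 fold change was -2.29 in KO (SE 1.30, adjusted p = 0.257) and -1.16 in WT (SE 1.26, adjusted p = 0.569; edgeR), and in WT it turned to 1.09 without WT chow replicate 4. Elovl7, another elongase of saturated chains, had 163 counts over all 16 libraries, from 0.184 to 1.20 CPM on HFD and from 0.0625 to 2.12 CPM on chow. Its 95% interval over both genotypes, from -1.27 to 1.10 on the log2 scale, holds differences of either sign.

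**Figure D1:**
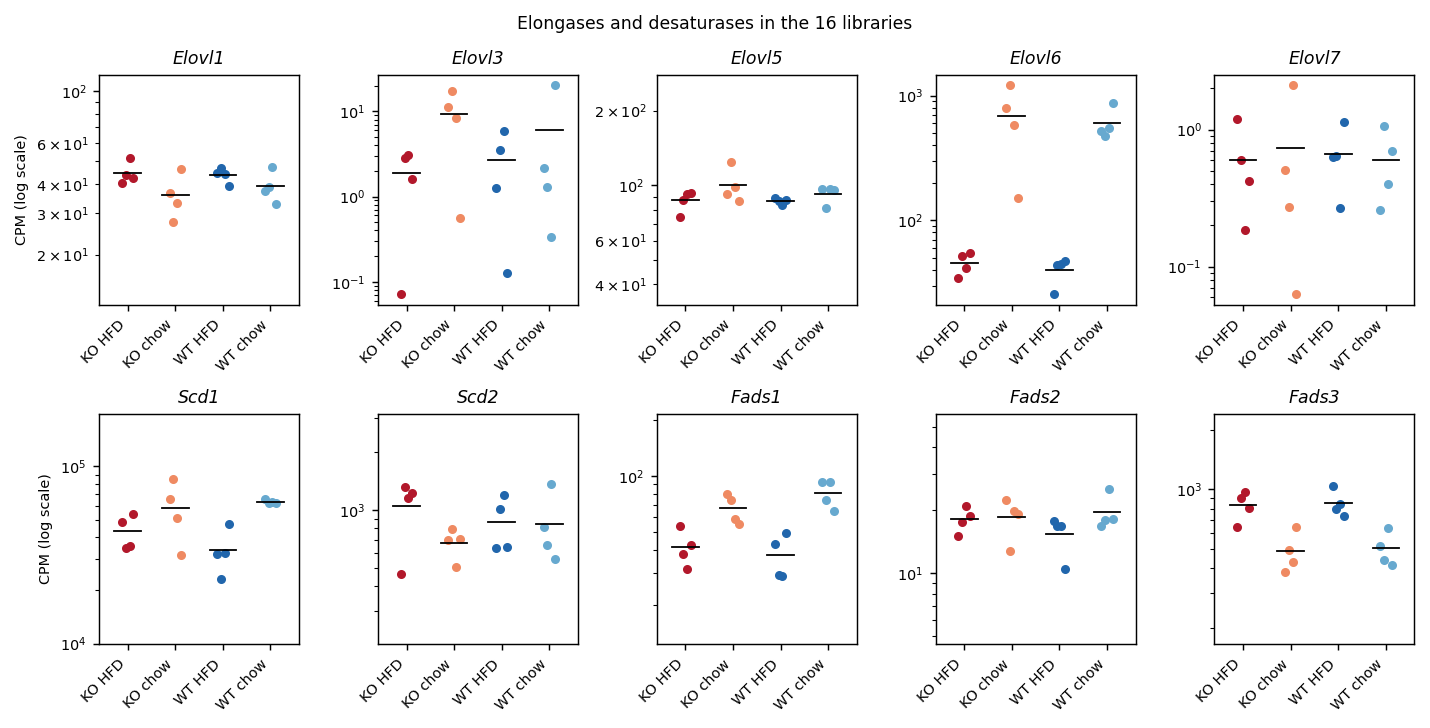
Each panel shows 1 gene, with its level in CPM on a log axis for the 4 libraries of each group as points and the group mean as a line. Elovl6 and Fads1 are lower and Fads3 higher in every HFD library than in every chow library, and KO chow replicate 4 is the low Elovl6 point at 152 CPM.

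Counted together, 3 of the 10 members passed in KO, where 12.5% of all tested genes did, and 3 in WT, where 11.8% did. In both, Elovl6 and Fads1 were lower and Fads3 higher, beside 5.23% of genes called lower and 7.28% called higher in KO and 4.92% and 6.9% in WT. Over both genotypes 4 members passed, with 33.1% of all genes called (16% lower and 17.1% higher), so Scd1, Elovl6 and Fads1 stood among 2644 lower genes and Fads3 among 2827 higher ones. The median log2 fold change of the members was -0.26 in KO and -0.21 in WT, beside -0.04 and -0.03 over all genes. Elovl6, Fads1 and Fads3 had no overlap between all HFD and all chow libraries, which held for 6.85% of tested genes.

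**Figure D2:**
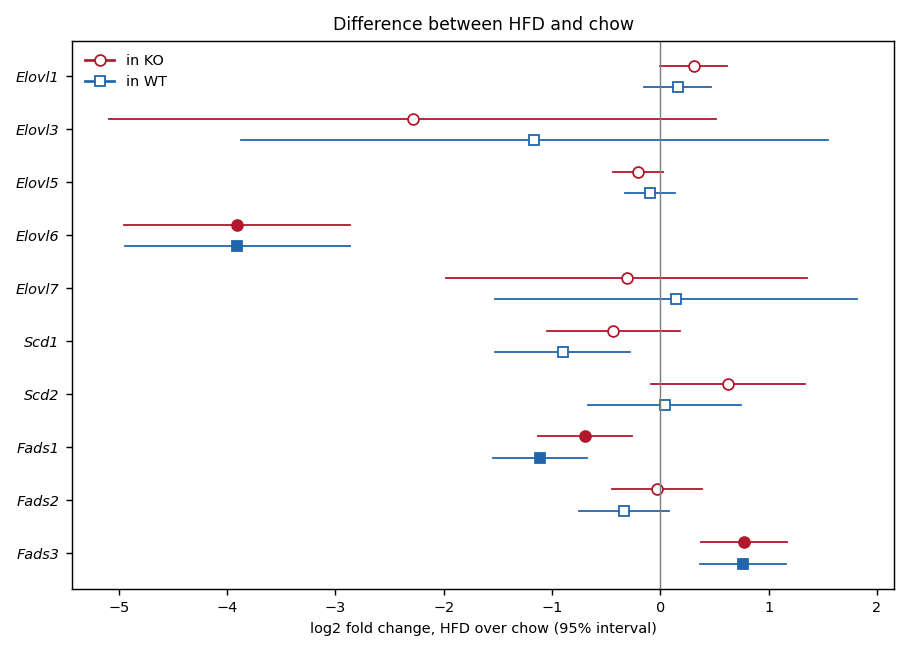
Points are log2 fold changes of HFD over chow in KO (circles) and WT (squares) with 95% intervals, and filled points passed an adjusted p of 0.05. Elovl6 lies at -3.91 in KO and -3.90 in WT, Fads1 is below 0 and Fads3 above 0, and the intervals of Elovl3 and Elovl7 are the widest.

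The genotypes were compared to ask whether loss of Kmo alters these genes on either diet. No member passed on HFD, on chow or over both diets, and each of these comparisons called 1 of 16549 genes, Kmo itself (0.00604%). The smallest unadjusted p of a member was 0.24 on HFD, 0.195 on chow and 0.44 over both diets (edgeR), and no member had an unadjusted p under 0.05. KO and WT libraries overlapped for all 10 genes on both diets, while 1.42% of genes on HFD and 0.556% on chow had no overlap. The log2 fold change of Scd1 was 0.35 on HFD (95% interval -0.26 to 0.97) and -0.12 on chow (-0.73 to 0.50), and that of Elovl6 was 0.18 on HFD (-0.76 to 1.12) and 0.18 on chow (-0.74 to 1.10). Fads3 was held more tightly, with -0.04 on HFD (-0.43 to 0.36) and -0.05 on chow (-0.44 to 0.35). For Fads1 the values were 0.14 on HFD (-0.29 to 0.57) and -0.27 on chow (-0.70 to 0.16), for Fads2 0.23 (-0.19 to 0.64) and -0.08 (-0.49 to 0.34), and for Scd2 0.26 (-0.45 to 0.97) and -0.32 (-1.03 to 0.38). Elovl5 gave 0.01 on HFD (-0.23 to 0.24) and 0.12 on chow (-0.12 to 0.35), and Elovl1 0.02 (-0.28 to 0.33) and -0.12 (-0.43 to 0.19). The widest intervals were those of the scarce members, with -0.50 on HFD (-3.26 to 2.27) and 0.63 on chow (-2.01 to 3.26) for Elovl3 and -0.16 (-1.85 to 1.52) and 0.29 (-1.37 to 1.95) for Elovl7. These p-values do not show that the genotypes are alike: a difference within these intervals could have been missed. In the authors' deposited tables of KO against WT, no member had a shrunken log2 fold change larger in size than 3.81e-05 on HFD or 7.49e-05 on chow, and every adjusted p was 1. Shrinkage pulls such values toward 0, so their size cannot be set beside the unshrunken ones above. The authors' smallest unadjusted p of a member was 0.107 on HFD and 0.159 on chow (DESeq2).

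**Figure D3:**
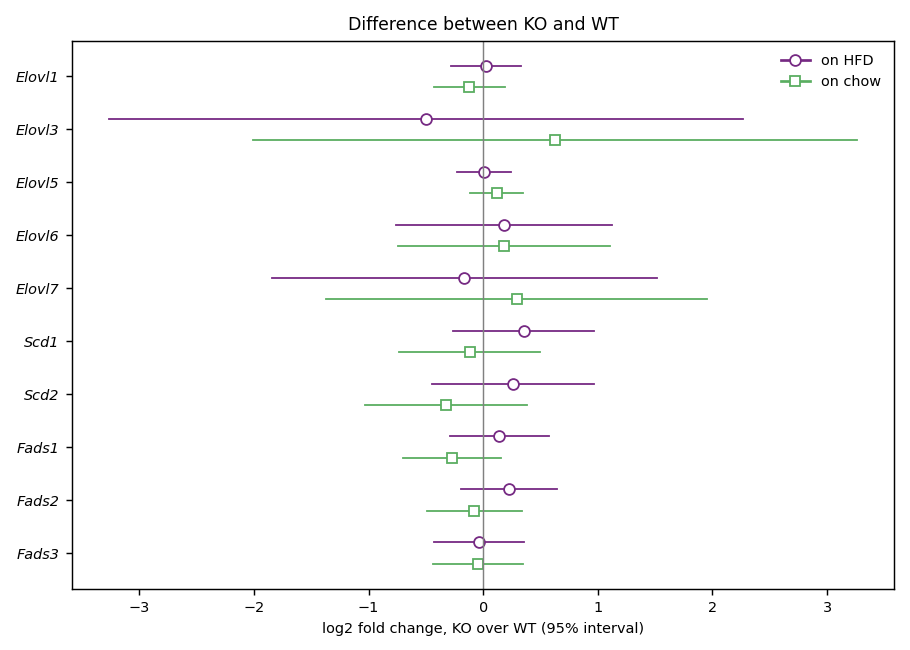
Points are log2 fold changes of KO over WT on HFD (circles) and on chow (squares) with 95% intervals, open because none passed the threshold. Every interval spans 0.

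Whether the diet difference depends on genotype was tested as an interaction, the diet log2 fold change in KO minus that in WT. No member and no gene passed (0%; 187 genes had an unadjusted p under 0.05). The interaction was 0.42 for Fads1 (SE 0.29), 0.47 for Scd1 (SE 0.41), 0.58 for Scd2 (SE 0.47), -1.12 for Elovl3 (SE 1.77) and -0.0025 for Elovl6 (SE 0.62), each with an adjusted p of 1 (edgeR). The remaining members lay between -0.45 for Elovl7 and 0.30 for Fads2.

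Levels were compared between genes only per transcript length, as TPM, which divides counts by exon length and scales each library to the same sum. Scd1 came first in each group, with 29090 ± 6391 TPM for KO on HFD, 36777 ± 11395 for KO on chow, 22601 ± 5396 for WT on HFD and 41251 ± 1009 for WT on chow (SD, n = 4 each). Fads3 and Scd2 followed, with 722 ± 113 and 625 ± 230 TPM for KO on HFD, 408 ± 111 and 387 ± 54.0 for KO on chow, 746 ± 131 and 530 ± 188 for WT on HFD and 423 ± 71.7 and 489 ± 193 for WT on chow, and in each group these neighbours in the order differed by less than the sum of their SDs. Elovl6 changed its place with diet. It was the seventh with 23.3 ± 4.52 TPM in KO HFD and 20.7 ± 5.04 in WT HFD, against the fourth with 323 ± 188 in KO chow and 300.1 ± 93.5 in WT chow. Elovl5 stayed between 81.3 and 89.1 TPM in group mean, Elovl1 between 42.1 and 53.8 and Fads2 between 15.7 and 18.9. Elovl6 stood at 0.156 to 0.323 times the level of Elovl5 in the HFD libraries, against 0.961 to 5.39 times in the chow libraries. Fads3 stood at 15.3 to 39.0 times the level of Fads1 in KO HFD, against 6.07 to 14.96 times in KO chow, and at 19.1 to 37.3 times in WT HFD, against 7.15 to 8.73 times in WT chow. These ratios rest on members already described and carry no test of their own.

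**Figure D4:**
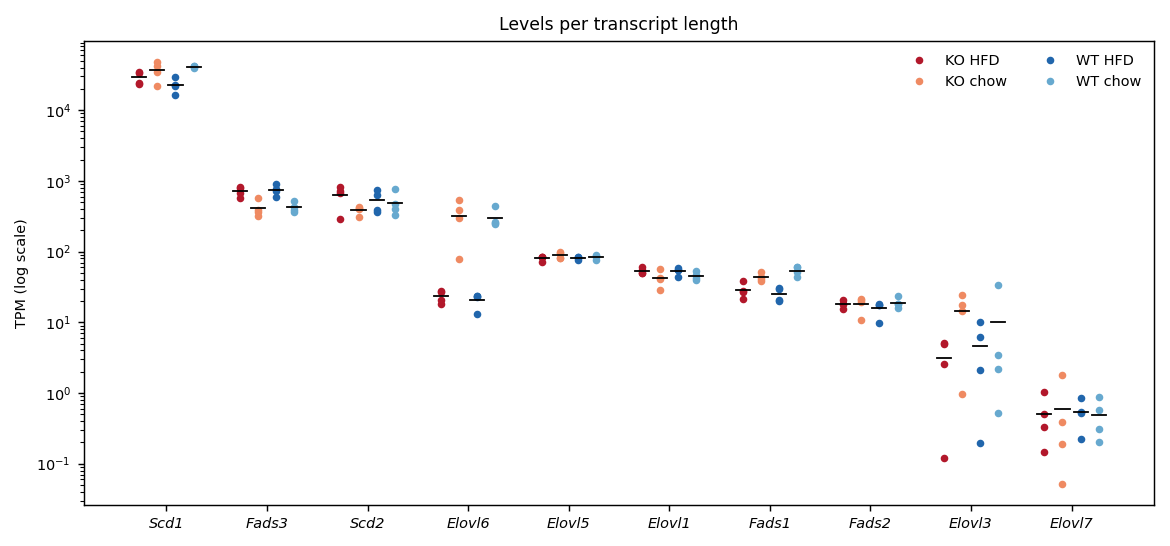
Levels per transcript length in TPM on a log axis for the 10 genes, ordered by their mean, with 1 point per library and the group mean as a line. Scd1 has at least 16355 TPM in every library, and Elovl6 is the gene whose HFD and chow libraries are farthest apart.

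KO chow replicate 4 was lowest of the 8 chow libraries in Elovl6 (152 CPM, next 473) and Scd1 (31712 CPM, next 51088). Its other extremes were near ties or at the floor. It was lowest in Fads1 (54.7 CPM, against 58.9 in KO chow replicate 3) and in Elovl7, with 1 count. It was highest in Fads3 (644 CPM, against 640 in WT chow replicate 3). Without it, the diet difference in KO was -4.24 on the log2 scale for Elovl6 (adjusted p = 1.39e-05), -0.78 for Fads1 (0.0244), 0.93 for Fads3 (0.0049) and -0.64 for Scd1 (0.11; edgeR), so the same members passed there, with Elovl1 added. The same library had a summed level of 285 CPM for the 10 beige adipocyte markers, of which Ucp1 and Cidea are defining. This sum was 106 to 198 CPM in KO mice on HFD, 285 to 864 in KO mice on chow, 121 to 191 in WT mice on HFD and 255 to 754 in WT mice on chow, and 6 of the 9 tested markers fell and 1 rose over both genotypes on HFD. On chow the 4 libraries highest in Elovl6 and in Elovl3 were the 4 with the highest beige sum: KO chow replicate 2 (864 CPM), WT chow replicate 4 (754), KO chow replicate 1 (547) and KO chow replicate 3 (454), against at most 317 in the others. On HFD 3 of the 4 highest were shared for each gene, but the library highest in Elovl6, KO HFD replicate 4, ranked 5 of 8 by beige sum. WT chow replicates 2 and 3 had lower beige sums (255 and 276 CPM) than KO chow replicate 4 (285) but more Elovl6 (473 and 552 CPM, against 152). Their summed skeletal muscle markers also differed (92.1 and 4663 CPM, against 780), and whether muscle adds to the beige sums was not tested. With a beige score as a covariate, chosen after seeing the data, 25 genes in all were called over both genotypes rather than 5471. The score was the mean log2 CPM of the tested beige markers, not their sum. The beige sums did not overlap between diets, and whether the scores did is not given here. Since 6 of the 9 tested markers fell on HFD, this fit cannot separate the beige markers from diet. Elovl6 then differed by -2.22 over both genotypes (adjusted p = 0.0473), against -3.91 without the score, by -2.56 in WT (0.0216) and by -1.88 in KO (0.331; edgeR). Fads1 was about as large as without the score, at -1.06 against -0.91 over both genotypes, but no longer passed (adjusted p = 0.135; edgeR). Fads3 was 0.57 against 0.76 (adjusted p = 0.314) and Scd1 -0.17 against -0.67 (0.863; edgeR), neither past the threshold. No beige marker was without counts in any group. Over both genotypes on HFD, 4 of 8 endothelial, 2 of 10 macrophage and 2 of 8 fibroblast and progenitor markers rose, beside 17.1% of all genes called higher. Of the 10 adipocyte markers Cidec rose and Cfd fell (-1.24). Of 3 tested skin and sebaceous gland markers 1 rose and 1 fell, and of 3 tested epithelial markers 1 rose. None of the 12 lymphocyte or 9 tested skeletal muscle markers passed. Lymphocyte markers summed to 6.55 CPM at the lowest (WT HFD replicate 4) and 796 CPM at the highest (WT chow replicate 4). Muscle markers summed to 16.8 CPM at the lowest (KO chow replicate 3) and 4663 CPM at the highest (WT chow replicate 3). The median log2 fold change over both genotypes was -1.35 for the lymphocyte list and -0.98 for the muscle list. With this spread, the tests do not show that the diets are alike in these markers. The part of other cells, beige adipocytes included, in the diet differences was not tested.

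**Figure D5:**
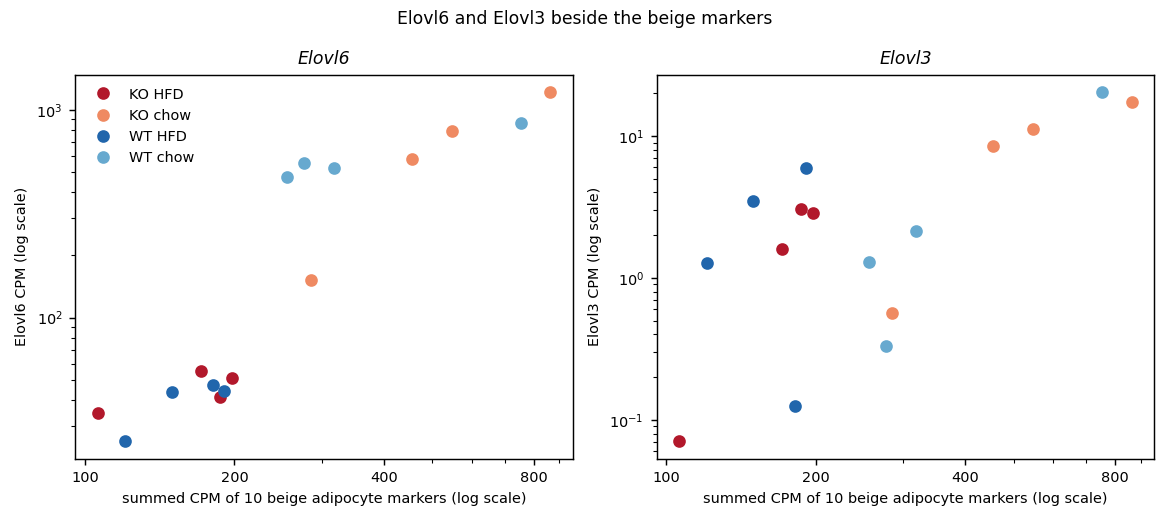
Elovl6 (left) and Elovl3 (right) in CPM against the summed CPM of the 10 beige adipocyte markers, both axes on log scales, 1 point per library. The HFD libraries lie at 106 to 198 CPM of the markers and the chow libraries at 255 to 864, without overlap.

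The genes whose profile over the 16 libraries was most like each member's were found by the root-mean-square distance of centred log2 CPM, among 11283 genes (11284 for Elovl7) with a mean of at least 5 CPM. For Elovl6 these were Acaca (0.68), Cidea (0.76) and Acly (0.79), for Scd1 Sfxn1, S100a1 and Echdc3 (0.22 to 0.24), and for Fads1 Pard6g, Oscp1 and Mr1 (0.17 to 0.21). Fads3 was nearest to Myo10, Cidec and Pcdh7 (0.11 to 0.13), and Scd2 to Adamts9, Sqle and Fam241a (0.22 to 0.24). Elovl5 was nearest to Isoc2b, Dlst and Vdac2, Elovl1 to Lasp1, Mfsd5 and Arfgap3, and Fads2 to Hlx, Avpi1 and Phf23 (0.18 to 0.20, beside its own spread of 0.29). Elovl3 had Chchd10 (1.35), mt-Te (1.38) and Gnal (1.48), and Elovl7 Tmem71, Tent5c and AI662270 (0.58 to 0.61), beside an own spread of 1.97 for Elovl3 and 0.87 for Elovl7.

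Enzymes and regulators around the family were counted over both genotypes on HFD, beside the 33.1% of genes called. All 8 genes listed under fatty acid synthesis were lower, among them Acaca (log2 fold change -2.52, the carboxylase that makes malonyl-CoA), Acly (-2.38), Thrsp (-2.26) and Fasn (-1.83). Of 14 regulators 6 fell and 2 rose. Ppara fell by 1.56, Mlxipl, which encodes ChREBP, by 1.30 and Srebf1, which encodes SREBP1, by 0.49 on the log2 scale, all with adjusted p under the threshold. Of the 6 partners of the elongation cycle, which reduce and dehydrate the lengthened chain, Hacd2 alone passed (0.42). Cytochrome b5 and its reductases are a family that supplies electrons to desaturases. Of 5 such genes Cyb5b (0.83) and Cyb5r3 (0.58) rose, while Cyb5a did not pass (-0.07, adjusted p = 0.705; edgeR). Of 7 other elongases and desaturases 4 were tested and Degs1, which desaturates dihydroceramide, rose (0.87), while Scd3 did not pass (-0.44, adjusted p = 0.264; edgeR). Of 10 tested genes of acyl-CoA activation, transport and binding, Slc27a2 (-5.04) and Acsl3 (-0.65) fell and Acbd4 (0.54) and Slc27a4 (0.48) rose. Of 12 users of long-chain acyl-CoA, Cers2 (-0.26), Gpam (-0.39) and Agpat2 (-0.42) fell and Cers4 (0.45) and Dgat2 (0.53) rose. None of these genes passed between genotypes on either diet.

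Exons of 4 members overlap another gene: Elovl1 shares 53 bases with Cdc20, Elovl3 10 with Pitx3, Elovl6 34 with Gm35986 and Scd2 61 with Mir5114. Since strand was not used in counting, reads of these stretches could not be assigned, and their number is not known here. The partners had 871 counts or fewer over all libraries, against 1243 for Elovl3, 10118 for Elovl1 and more for the others. Counts of either gene leave out the unassigned reads, so they do not show how many were lost. Scd1 to Scd4 are close copies, so their reads may be partly shared, most of all those of the scarce Scd3 and Scd4.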

How the data were processed

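Poly-A RNA of 16 fat samples was sequenced with paired reads of 150 bases from a stranded kit, per the labels' protocols. Per the submitters' processing notes, the aligner was STAR 2.7.3a and the genome GRCm38.p6. The deposited counts are whole read pairs per gene, made by the authors with featureCounts 2.0.3, Ensembl 102 and strand setting 0 (strand not used), per the file headers. The authors' deposited tables of KO against WT give shrunken log2 fold changes and p-values (DESeq2, per the submitters' processing notes). Every count column was mapped by its animal code.

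Counts were filtered with filterByExpr, scaled by TMM and fitted as 4 group means over all 16 libraries with edgeR 4.0.16 (R 4.3.3; robust quasi-likelihood test). The Benjamini-Hochberg adjustment ran over all 16549 genes, with a threshold of 0.05. Log2 CPM used a prior count of 2, and TPM used the exon lengths of the count table. Counts overlapping between genes and close copies are uncertain. The fit was tested on simulated data. None of the 24 pairs of libraries within a group agreed within sampling noise (lowest chi-square per gene 10.6). Members and gene lists were chosen with earlier results of these data known. The text names all 10 members, though not each with its value in every comparison. Up to 4 genes of each related list are named, called ones by adjusted p over both genotypes and otherwise the most abundant. So are the 3 genes most like each member. In the list of users of long-chain acyl-CoA all 5 called genes are named. The alternatives tried were upper-quartile and relative log expression factors, Scd1 left out of the totals, DESeq2 1.42.0, no filter, the 8 libraries compared alone, a replicate block, a lymphocyte score, a threshold of 0.10 and leaving out each library. Added after seeing the data were merged libraries alone, a single-lane term, and beige and adipocyte scores.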

Additional observations from a re-analysis of the deposited data

Results flagged for a closer look

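In 40 groups of 4 libraries, 1 for each member and group, 5 had a highest or lowest library whose gap to its nearest neighbour, as a share of the group's range, was past Dixon's 95% critical value, where chance gives about 1 in 20. Elovl3 had 20.4 CPM in WT chow replicate 4, far above the other WT chow libraries. Elovl5 had 80.9 CPM in WT chow replicate 2, below its group. Elovl6 had 25.4 CPM in WT HFD replicate 1, below its group. Fads2 had 10.5 CPM in WT HFD replicate 4, below its group, and 25.2 CPM in WT chow replicate 3, above its group.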

How the results depend on the processing

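Of 1997 values of the members under the alternatives, 134 changed sign, none of them a value that had passed the threshold, 22 lost a call and 12 gained one. Elovl7 had 1 to 35 counts in a library, and Elovl3 as few as 1, so counting error is part of their spread. Elovl7 was removed by the filter in some fits that left out a library. The cause of the changes below was not tested.

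Of 16 correlations of same-numbered deviations, 8 were over 0.1 (range -0.693 to 0.553). Between diets they ran from -0.352 to 0.553 in KO and from -0.246 to 0.387 in WT. Between genotypes they ran from -0.693 to -0.341 on chow and from -0.414 to 0.425 on HFD. These values do not settle whether the replicate numbers pair the libraries. With the replicate block, 3 members were called in KO, 3 in WT and 4 over both genotypes, as without it, and sign changes were 0.041 for Elovl6 and -0.0097 for Fads3 in the interaction and 0.0019 for Scd2 over both diets.

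With the beige score, 0 members were called in KO, 1 in WT and 1 over both genotypes. Since 6 of the 9 tested beige markers fell on HFD, the values with this score cannot separate the beige markers from diet. For HFD against chow, in KO, in WT and over both genotypes, Elovl1 became -0.077, -0.14 and -0.11, Elovl3 2.68, 3.76 and 3.22, and Elovl5 0.15, 0.17 and 0.16, while Scd1 became 0.18 in KO and Elovl7 -0.27 in WT. For KO against WT over both diets, values became 0.024 for Elovl1, -0.74 for Elovl3, -0.011 for Elovl5, -0.24 for Elovl6 and 0.0064 for Fads3. On chow they became -0.20 for Elovl3, -0.58 for Elovl6, 0.0076 for Fads2 and 0.024 for Fads3, and on HFD -0.021 for Elovl5. The interaction became 0.68 for Elovl6 and -0.035 for Fads3.

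With merged libraries alone, KO against WT on HFD became -0.0033 for Elovl1 and 0.065 for Elovl3, the interaction 0.42 for Elovl6, HFD against chow 0.053 for Fads2 in KO and -0.13 for Scd2 in WT, and KO against WT over both diets 0.075 for Scd2. With the single-lane term, KO against WT on HFD became -0.0042 for Elovl1 and -0.045 for Elovl5, over both diets -0.42 for Elovl3, HFD against chow in KO 0.030 for Fads2, and the interaction -0.0030 for Fads3. This term and the adipocyte score also let Scd1 in WT pass. With the adipocyte score, KO against WT on HFD became 0.69 for Elovl3 and -0.016 for Elovl5, the interaction 0.0029 for Elovl6 and -0.047 for Fads3, and HFD against chow over both genotypes 0.055 for Elovl7. With the lymphocyte score, HFD against chow became 0.35 in KO and 0.62 over both genotypes for Elovl7 and -0.078 in WT for Scd2, and KO against WT over both diets -0.12 for Elovl7. Upper-quartile factors gave -0.0049 for Fads3 in the interaction and -0.0050 for Scd2 between diets in WT, and leaving Scd1 out of the totals gave -0.00013 for Fads3 in the interaction.

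Leaving out each library in turn gave 1 to 4 members called between diets in KO, with 1 left without KO chow replicate 3, KO HFD replicate 2 or KO HFD replicate 3. Log2 fold changes that changed sign ranged as follows. For HFD against chow in KO, Elovl7 ranged from -0.88 to 1.08 and Fads2 from -0.17 to 0.069. In WT, Elovl3 ranged from -1.88 to 1.09, Elovl7 from -0.23 to 0.55 and Scd2 from -0.15 to 0.37, and over both genotypes Elovl7 from -0.37 to 0.61. For KO against WT on HFD, Elovl1 ranged from -0.055 to 0.070, Elovl3 from -0.89 to 0.23, Elovl5 from -0.035 to 0.073, Elovl7 from -0.74 to 0.21, Fads1 from -0.0088 to 0.30 and Fads3 from -0.12 to 0.066. On chow, Elovl5 ranged from -0.0022 to 0.18, Elovl6 from -0.25 to 0.52, Elovl7 from -1.10 to 0.70, Fads2 from -0.18 to 0.071, Fads3 from -0.21 to 0.091, Scd1 from -0.35 to 0.087 and Scd2 from -0.48 to 0.0031. Over both diets, Elovl1 ranged from -0.12 to 0.0039, Elovl3 from -0.18 to 1.19, Elovl5 from -0.00070 to 0.095, Elovl6 from -0.040 to 0.35, Elovl7 from -0.63 to 0.27, Fads1 from -0.14 to 0.012, Fads3 from -0.12 to 0.027, Scd1 from -0.0020 to 0.22 and Scd2 from -0.11 to 0.13. In the interaction, Elovl5 ranged from -0.18 to 0.0029, Elovl6 from -0.34 to 0.43, Elovl7 from -1.03 to 0.93 and Fads3 from -0.13 to 0.17.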
